A study of Rattus norvegicus with 6 samples.

Results

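The mitochondrial ribosomal protein genes were followed in diaphragm muscle of diabetic and normal rats. The members are all probe sets annotated to exactly 1 gene whose symbol is Mrpl or Mrps with a number, which gave 82 probe sets for 71 of the 10411 named genes on the array, 45 of them Mrpl (large subunit) and 26 Mrps (small subunit). Total RNA came from the costal diaphragm of the left side. The 3 normal animals were male Wistar rats injected with citrate buffer at 8 weeks of age. The 3 diabetic animals, of the same strain, sex and age, were given streptozotocin at 60 mg/kg, a toxin of the pancreatic beta cell. Muscle was taken 4 weeks after injection under ketamine, xylazine and acepromazine following a night without food, the diabetic rats received no insulin, and each rat was hybridized to 1 Affymetrix RAE 230A array. Streptozotocin can also act outside the pancreas, so diabetes and the toxin cannot be told apart in these groups.

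Mitochondria carry a ribosome of their own that makes the few respiratory chain subunits encoded in mitochondrial DNA. Its RNAs come from mitochondrial DNA, whereas every one of its proteins is encoded in the nucleus, made in the cytosol and imported. The small subunit reads the messenger RNA and the large subunit joins the amino acids. Some of the proteins have a counterpart in the bacterial ribosome and others are found only in mitochondria. In a muscle that works without rest, the respiratory chain that this ribosome helps to build supplies most of the ATP.

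Most mitochondrial ribosomal protein genes had a slightly lower signal in diabetic diaphragm, and 1 gene stood out in the opposite direction. The log2 fold change (diabetic minus normal, so negative values are lower in diabetic muscle, with its standard error given as SE) was below 0 in 57 of 71 genes, or 80.3%, where the share over all 7080 named genes tested was 49.2%. Its median was -0.15, beside 0.0080 over all named genes tested. Few single genes passed: at an adjusted p under 0.05 from limma, Mrps16 and Mrpl42 were lower, Mrpl41 was higher, and 68 genes did not pass. These calls are 2.82% and 1.41% of the members, where 3.55% of all named genes tested were called lower, 3.46% higher and 7.01% in either direction, so the members were not called more often than other genes. At an unadjusted p under 0.05, 16 members (22.5%) were lower and 2 were higher, beside 11.9% and 12.8% of all named genes tested. The groups did not overlap, with the diabetic rats lower, in 22 members (31.0%) and did not overlap, with the diabetic rats higher, in 4 (5.63%), where the shares over all named genes tested were 14.9% and 15.9%.

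The calls depended on single arrays. The number of genes called higher and lower was 1 and 0 without normal replicate 1, 0 and 2 without normal replicate 2, 0 and 0 without normal replicate 3, 0 and 2 without diabetic replicate 1, 1 and 0 without diabetic replicate 2, and 0 and 1 without diabetic replicate 3. Among all 7080 named genes tested, 496 were called with every array and 241 to 334 with an array left out. Fewer calls without an array were therefore not particular to the members. The count of member genes below 0 ranged from 48 to 59 over the same cases. In whole muscle, fewer cells of a type and less RNA per cell cannot be told apart.

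**Figure D1:**
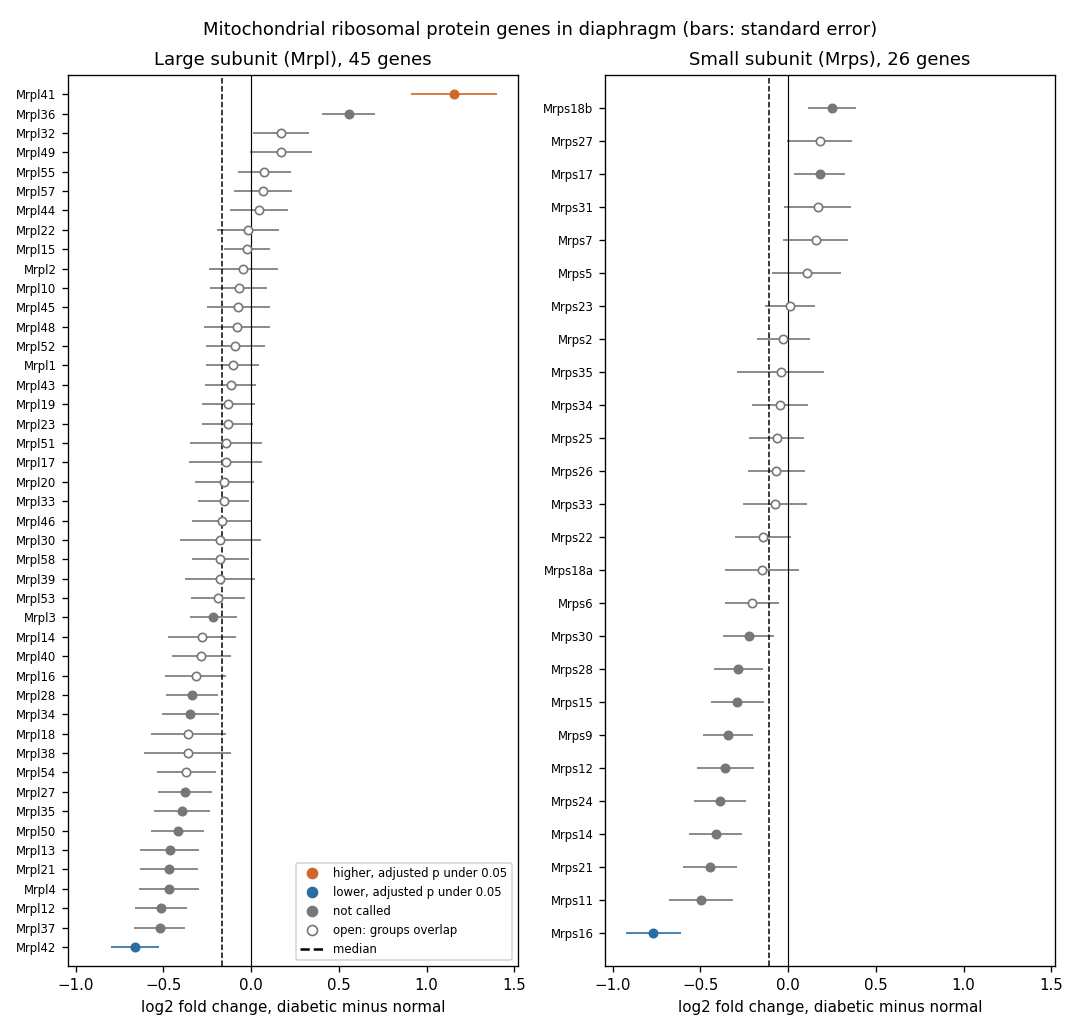
Log2 fold change (diabetic minus normal, horizontal axis) of each of the 45 large subunit and 26 small subunit genes, with its standard error. Filled points are genes whose groups do not overlap, colours mark the genes called at an adjusted p under 0.05, and dashed lines are the medians of -0.17 and -0.11. Mrpl41 lies farthest to the right, and Mrps16 and Mrpl42 lie farthest to the left.

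Mrpl41 encodes a protein of the large subunit that has no bacterial counterpart. Its signal was 2356, 2017 and 1755 in the 3 normal rats and 5459, 2945 and 5757 in the 3 diabetic rats. Every diabetic value lay above every normal value, and diabetic replicate 2 lay well below the other two diabetic rats. The means were 2043 ± 301 in normal and 4720.5 ± 1545 (SD, n = 3 each) in diabetic muscle, a 2.31-fold difference (log2 fold change 1.16, SE 0.24, limma adjusted p = 0.021). Without normal replicate 2 or 3, or diabetic replicate 1 or 3, Mrpl41 did not pass (adjusted p = 0.057, 0.057, 0.073 and 0.069), although its log2 fold change stayed between 0.98 and 1.47 over the 6 fits that leave out 1 array.

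Mrps16 encodes the counterpart of bacterial protein S16 in the small subunit. Its signal was 2837, 2189 and 2758 in normal and 1578, 1386 and 1581 in diabetic rats, with a gap between the groups. It fell from 2594.5 ± 353 to 1515 ± 112 (SD, n = 3 each), 1.71-fold (log2 fold change -0.77, SE 0.16, limma adjusted p = 0.018). Mrps16 did not pass without normal replicate 1 or 3 or without diabetic replicate 2 (adjusted p = 0.073, 0.052 and 0.068).

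Mrpl42, a large subunit protein known only from mitochondrial ribosomes, had a signal of 2863, 2730 and 3126 in normal and 1900, 1759 and 1841 in diabetic rats. The diabetic values lay close together and well below the normal ones. It fell 1.59-fold, from 2906 ± 201 to 1833 ± 71.2 (SD, n = 3 each) (log2 fold change -0.66, SE 0.14, limma adjusted p = 0.020). Without normal replicate 1 or 3, or diabetic replicate 2 or 3, the adjusted p was 0.062, 0.059, 0.070 and 0.053.

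The sequences before the start sites of these 3 genes are shown because they are the members that passed the test. They are the 250 bases upstream of the start in RefSeq's GRCr8 annotation of the rat, 5′ to 3′ on the strand of the gene, with CG dinucleotides in capitals. Mrpl41 lies at chr3:28179756-28180005 (minus strand), Mrps16 at chr15:3967559-3967808 (plus strand) and Mrpl42 at chr7:32028523-32028772 (minus strand).
Mrpl41: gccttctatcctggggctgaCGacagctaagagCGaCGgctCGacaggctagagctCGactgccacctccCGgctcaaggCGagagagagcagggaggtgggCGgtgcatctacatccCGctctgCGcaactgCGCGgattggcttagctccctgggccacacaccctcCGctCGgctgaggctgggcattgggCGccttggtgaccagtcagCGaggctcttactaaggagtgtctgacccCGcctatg
Mrps16: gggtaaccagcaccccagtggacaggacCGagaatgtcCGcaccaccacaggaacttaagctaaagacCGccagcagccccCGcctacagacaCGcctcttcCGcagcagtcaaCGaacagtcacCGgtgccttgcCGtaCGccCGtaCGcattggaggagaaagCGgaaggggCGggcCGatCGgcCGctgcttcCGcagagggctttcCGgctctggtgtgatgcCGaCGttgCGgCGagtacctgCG
Mrpl42: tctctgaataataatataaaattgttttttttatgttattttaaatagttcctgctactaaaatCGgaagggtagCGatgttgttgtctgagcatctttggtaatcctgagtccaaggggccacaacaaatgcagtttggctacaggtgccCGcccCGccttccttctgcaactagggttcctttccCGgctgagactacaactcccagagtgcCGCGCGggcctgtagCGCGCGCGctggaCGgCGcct

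The 3 windows hold 17, 24 and 14 CG dinucleotides, where the median was 13 over the 57 member genes that matched the promoter table and 9 over 18999 protein-coding genes, with 1 window per gene. Factors known to act on genes of mitochondrial proteins were searched by their letters on both strands of the same window: GCGCATGC for nuclear respiratory factor 1, CCGGAAGT for GABP and other ETS factors, AAGATGGC for YY1, CACGTG for the E-box of Myc and USF, and TCAAGGTCA for the estrogen-related receptor. None of the 5 motifs was in the 3 windows shown. Over the members, the nuclear respiratory factor 1 letters were in 5 of 57 windows (8.77%, beside 2.94% of protein-coding genes), namely those of Mrpl17, Mrpl22, Mrpl32, Mrpl44 and Mrps18b. The ETS letters were in 4 windows (7.02% beside 4.16%), those of YY1 in 3 (5.26% beside 1.71%), the E-box in 3 (5.26% beside 6.38%) and those of the estrogen-related receptor in 0, where 0.305% of protein-coding genes held them. Of the 16 matched members that were lower with no overlap, 1 held the ETS letters (Mrpl27) and none held the others.

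The member genes were spread over 18 chromosomes, with at most 12 on a chromosome. In 13 of 57 members (22.8%) the promoter window overlapped that of a gene of any type on the opposite strand, beside 9.34% of protein-coding genes. For this overlap the whole listed window was used, which runs past the start site and so is longer than the bases searched above. Among the 13 members were Mrpl46 and Mrps11, which are direct neighbours and run in opposite directions. Mrps11 had signals of 888, 672 and 947 in normal and 528, 568 and 670 in diabetic rats (log2 fold change -0.50, SE 0.18, limma adjusted p = 0.13), and its groups did not overlap. Mrpl46 had a log2 fold change of -0.17 with overlapping groups (adjusted p = 0.60).

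After Mrpl41, the next highest member was Mrpl36, the counterpart of bacterial protein L36. Its signal was 1234, 1125 and 1046 in normal and 1544, 1604 and 1860 in diabetic rats, with no overlap. The means were 1135 ± 94.5 and 1669 ± 168 (SD, n = 3 each), a ratio of 1.47, and the gene just missed the threshold (log2 fold change 0.56, SE 0.15, limma adjusted p = 0.055). It passed when only probe sets above the 60th percentile of signal were tested (adjusted p = 0.045) and when the probe sets of a gene were averaged (0.050), but not with a variance prior that ignores the signal level (0.090) or with any array left out (0.0855 to 0.157).
The other members that lay higher without overlap belong to the small subunit. Mrps18b, one of several genes related to bacterial protein S18, had signals of 2235, 2181 and 2106 in normal and 2785, 2413 and 2561 in diabetic rats (log2 fold change 0.25, limma adjusted p = 0.30). Mrps17, the counterpart of bacterial S17, had means of 1242 ± 65.7 and 1408 ± 108 (SD, n = 3 each) (log2 fold change 0.18, limma adjusted p = 0.49). Mrps27, a small subunit protein known only from mitochondria, had a log2 fold change of 0.18 with overlapping groups (limma adjusted p = 0.61).

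**Figure D2:**
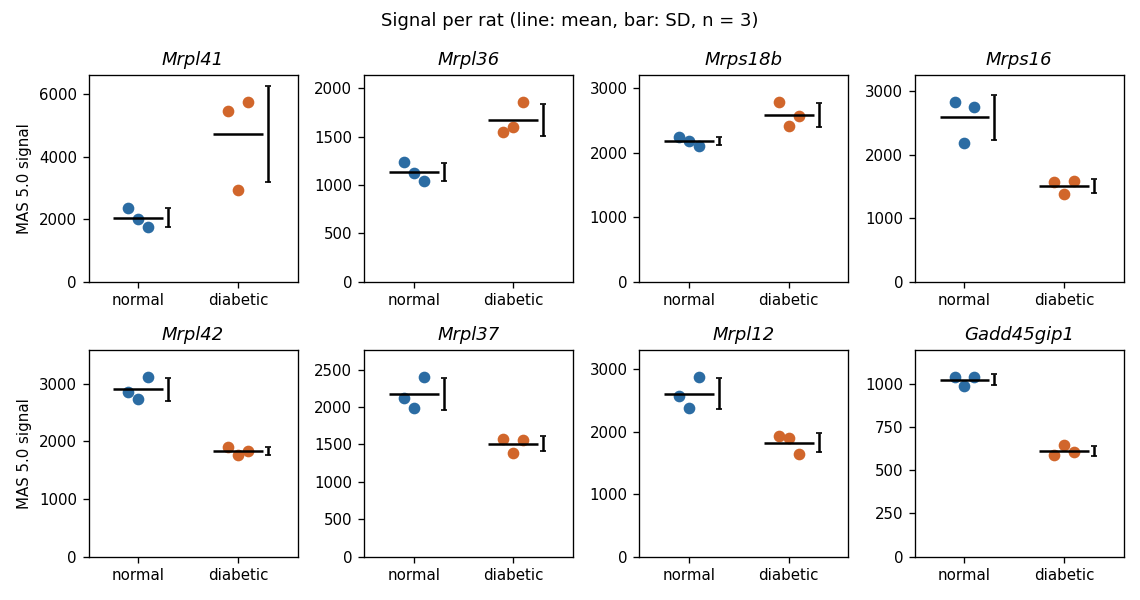
MAS 5.0 signal (vertical axis, linear, from 0) of 8 mitochondrial ribosome genes in the 3 normal and 3 diabetic rats, with the mean as a line and the SD as a bar. In all 8 panels the groups are apart, with Mrpl41, Mrpl36 and Mrps18b higher and the other genes lower in diabetic muscle.

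Among large subunit genes that did not pass, those nearest the threshold on the lower side were Mrpl37 and Mrpl12. Mrpl37, found only in mitochondrial ribosomes, had signals of 2118, 1989 and 2409 in normal and 1575, 1390 and 1565 in diabetic rats (log2 fold change -0.52, SE 0.15, limma adjusted p = 0.062). Mrpl12, the counterpart of the bacterial stalk protein to which translation factors bind, had signals of 2567, 2383 and 2885 in normal and 1927, 1901 and 1649 in diabetic rats (log2 fold change -0.52, SE 0.15, limma adjusted p = 0.066). In both genes the groups were clearly apart. When all probe sets of a gene were averaged, including the dim ones, Mrpl37 had a log2 fold change of -0.33 and an adjusted p of 0.528.
The log2 fold change was -0.47 for Mrpl4, Mrpl13 and Mrpl21, which are counterparts of bacterial proteins, with adjusted p-values of 0.13, 0.12 and 0.12. Mrpl50, a protein of mitochondrial ribosomes only, had means of 2188 ± 249 and 1633 ± 127 (SD, n = 3 each) (log2 fold change -0.42, limma adjusted p = 0.13). Mrpl27, whose bacterial counterpart lies at the site where peptide bonds form, had means of 3288.5 ± 488 and 2510 ± 80.2 (SD, n = 3 each) (log2 fold change -0.38, limma adjusted p = 0.17). Mrpl3, Mrpl28, Mrpl34 and Mrpl35, all counterparts of bacterial proteins, completed the 12 large subunit genes that were lower with no overlap, at log2 fold changes of -0.22, -0.34, -0.35 and -0.39.

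In the small subunit, 10 genes were lower in diabetic rats with no overlap: Mrps9, Mrps11, Mrps12, Mrps14, Mrps15, Mrps16, Mrps21, Mrps24, Mrps28 and Mrps30. Mrps21, the counterpart of bacterial S21, had signals of 2387, 2164 and 2147 in normal and 1900, 1458 and 1590 in diabetic rats (log2 fold change -0.44, SE 0.15, limma adjusted p = 0.11). Mrps14 was at 1430 ± 135 and 1074 ± 94.4 (SD, n = 3 each), and Mrps24, the counterpart of bacterial S3, was at 1898 ± 209 and 1445 ± 81.4 (SD, n = 3 each). Their log2 fold changes were -0.41 and -0.39 (adjusted p = 0.13 and 0.15), so both were about as far apart as Mrps21.
Mrps12, related to the bacterial protein that guards the accuracy of decoding, had means of 1073 ± 153 and 832 ± 51.4 (SD, n = 3 each) (log2 fold change -0.36, limma adjusted p = 0.21). Mrps9 varied least among these genes, at 926, 880 and 865 in normal and 712, 724 and 671 in diabetic rats, yet did not pass (log2 fold change -0.34, SE 0.14, limma adjusted p = 0.18). Mrps15, Mrps28 and Mrps30 had log2 fold changes of -0.29, -0.28 and -0.23.

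Comparing the subunits, the log2 fold change was below 0 in 38 of 45 large subunit genes (84.4%) and in 19 of 26 small subunit genes (73.1%). The medians were -0.17 and -0.11, and 12 genes (26.7%) of the large and 10 (38.5%) of the small subunit were lower with no overlap, beside 14.9% of all named genes tested. At an adjusted p under 0.05, 1 gene was higher and 1 lower in the large subunit, and 0 were higher (0 also at an unadjusted p under 0.05 from limma) and 1 lower in the small subunit. The shares called lower, 2.22% and 3.85%, were near the 3.55% of all named genes tested. The difference of medians, large minus small, was -0.057, and no test was run on it. Between single arrays of a group that difference had an SD of 0.0644, which is not the standard error of a difference between groups. The difference of medians turned to 0.041 without diabetic replicate 1 and went to -0.13 without diabetic replicate 2. The small subunit median itself went to -0.047 without normal replicate 1, to -0.22 without diabetic replicate 1 and to -0.033 without diabetic replicate 2. 
The symbols do not always give the place of the protein. Mrps18a and Mrps30 are named for the small subunit but sit in the large one in the mammalian mitochondrial ribosome. With both moved, the medians were -0.17 over 47 large and -0.071 over 24 small subunit genes. Mrps30 was at 1344 ± 113 and 1147.5 ± 50.7 (SD, n = 3 each), and Mrps18a differed by -0.15 on the log2 scale (limma adjusted p = 0.71).

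Divided by origin rather than subunit, 18 of 42 genes with a bacterial counterpart (42.9%) and 4 of 29 without one (13.8%) were lower with no overlap, where the share over all named genes tested was 14.9%, so the genes without a counterpart were near that share. The median log2 fold change was -0.21 and -0.090. In the small subunit by symbol these counts were 9 of 16 (56.2%) and 1 of 10 (10%). The latter gene was Mrps30, which sits in the large subunit by structure. In the large subunit by symbol the counts were 9 of 26 (34.6%) and 3 of 19 (15.8%), with equal medians of -0.17. The division is a description with no test, and 2 of the 3 genes that passed, Mrpl41 and Mrpl42, lack a bacterial counterpart.

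On each array, every member was set against its own mean over the 6 arrays on the log2 scale, and the median over the 71 members was taken. It was 0.106, 0.074 and 0.076 on the normal arrays and -0.009, -0.115 and -0.101 on the diabetic arrays. All normal arrays lay above all diabetic arrays, and diabetic replicate 1 lay near 0 and thus nearer to the normal arrays than the other two diabetic arrays did. Over all named genes tested the same median ran from -0.018 to 0.049, so the arrays differed less over all genes than over the members. For the large subunit it was 0.161, 0.021 and 0.112 in normal and -0.019, -0.108 and -0.111 in diabetic rats. For the small subunit it was 0.085, 0.090 and 0.037 in normal and 0.002, -0.121 and -0.051 in diabetic rats. Both subunits therefore kept the groups apart, each by a small margin.

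**Figure D3:**
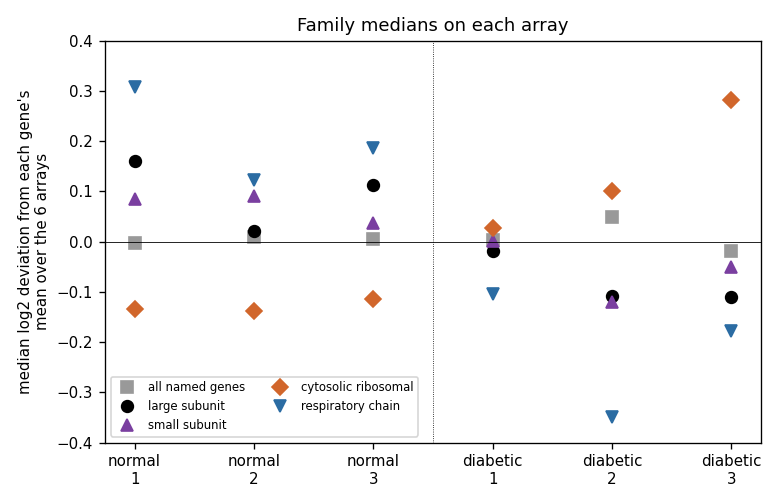
Median over the genes of a family of the log2 deviation from each gene's own mean (vertical axis) on each of the 6 arrays (horizontal axis). Large and small subunit medians lie above 0 on all normal arrays and between -0.121 and 0.002 on the diabetic arrays, and cytosolic ribosomal protein genes lie the other way.

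The spread of the members between rats of a group was not set against that of other genes. The coefficient of variation of the signal had a median of 9.87% over the members in normal muscle, with a range from 1.24% to 30.7%, and of 11.1% in diabetic muscle, with a range from 0.352% to 40.6%. The widest spreads were in Mrpl30 among normal and Mrps35 among diabetic rats. Mean signals ran from 290.4 to 5706, and all 71 genes lay above the filter level of 105.8. Mrpl54, Mrpl15 and Mrpl17 had the brightest probe sets, which does not rank the abundance of their RNAs. Mrpl54 had signals of 7589, 6000 and 5707 in normal and 5819, 4357 and 4762 in diabetic rats, which overlap (log2 fold change -0.37, limma adjusted p = 0.21). Mrpl15 had almost equal means, at 3662 ± 80.1 and 3609 ± 219 (SD, n = 3 each), and Mrpl17 differed by -0.15 on the log2 scale (limma adjusted p = 0.72).

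Where a gene had several probe sets of its own above the filter (Mrpl37, Mrpl40, Mrpl49, Mrpl50, Mrpl51, Mrpl52 and Mrpl57), all lay on the same side of 0. Mrpl37 had a second probe set with a log2 fold change of -0.62 (standard error 0.32), Mrpl50 one of -0.30 (standard error 0.16), and Mrpl40 had -0.28 and -0.41. Sizes differed most for Mrpl51, a protein of mitochondrial ribosomes only, whose 4 probe sets gave -0.14, -0.65, -0.46 and -0.025 from the brightest to the dimmest. The second brightest of them had signals of 744, 928 and 574 in normal and 418, 414 and 588 in diabetic rats (adjusted p = 0.10 from limma), so the brightest probe set gives a smaller difference than this one. Mrpl52 had -0.090 and -0.46, and Mrpl49 and Mrpl57 had 0.17 and 0.080, and 0.068 and 0.24. The dimmest probe sets of Mrps26 and Mrpl37 were below the filter, at mean signals of at most 13.0, and were not tested.

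**Figure D4:**
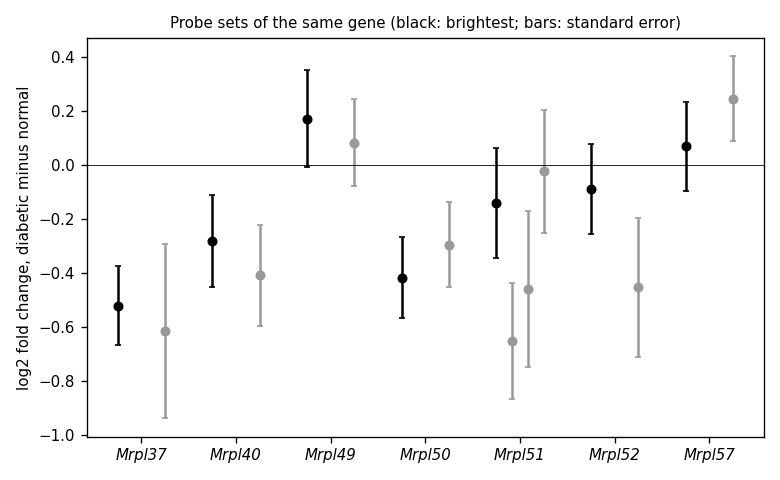
Log2 fold change (vertical axis, with standard error) of each tested probe set of the 7 genes with more than 1, the brightest in black. The probe sets of a gene lie on the same side of 0, and those of Mrpl51 range from -0.65 to -0.025.

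Some proteins of the mitochondrial ribosome carry other names, and 5 such genes were on the array. All 5 had log2 fold changes below 0, 4 were lower with no overlap and 1 passed. Gadd45gip1, whose product lies in the large subunit near the exit of the new peptide, had signals of 1044, 990 and 1043 in normal and 591, 647 and 604 in diabetic rats. The groups were far apart, and it fell 1.67-fold (log2 fold change -0.74, SE 0.14, limma adjusted p = 0.015). Without normal replicate 1 it did not pass (adjusted p = 0.054). Of the small subunit proteins, Dap3 had signals of 540, 558 and 523 in normal and 398, 358 and 410 in diabetic rats (log2 fold change -0.48, limma adjusted p = 0.092). Aurkaip1 and Chchd1 had log2 fold changes of -0.39 and -0.37 without overlap (adjusted p = 0.15 and 0.18), and Ptcd3 overlapped (-0.17, adjusted p = 0.69).

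The rest of mitochondrial translation gave few calls. Of 8 translation factors and helpers tested, none passed in limma, 0 were higher and 2 lower at an unadjusted p under 0.05, and the median log2 fold change was -0.27. Lrpprc, which stabilizes mitochondrial messenger RNA, and Letm1, a membrane protein, were lower without overlap (-0.39 each, adjusted p = 0.17 and 0.18), and Tufm, the elongation factor that brings in the tRNA, had -0.45 (adjusted p = 0.24). Of 14 genes listed for ribosome assembly and ribosomal RNA modification none passed, 1 was higher and 2 lower at an unadjusted p under 0.05, and the median was -0.0064. The lowest p in this list was that of Nfs1, a cysteine desulfurase (-0.50, adjusted p = 0.077), while Rbfa lay at -0.52 (adjusted p = 0.18) and Ngrn, an assembly factor, lay at 0.38 (adjusted p = 0.17). Of 7 mitochondrial aminoacyl-tRNA synthetases none passed, with 1 higher and 1 lower at an unadjusted p under 0.05. These were Kars1, which also serves the cytosol (0.49, adjusted p = 0.057), and Tars2 (-0.44, adjusted p = 0.14). Cars2 had -0.38 (adjusted p = 0.33). Kars1 passed under quantile normalization and with the filter at the 60th percentile (adjusted p = 0.043 and 0.047), but not with a variance prior that ignores the signal level (0.10) or with any array left out (0.101 to 0.140).

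Genes of mitochondrial DNA and its transcription went both ways, with 1 of 13 higher and 1 lower. Slirp, the partner of Lrpprc in stabilizing mitochondrial messenger RNA, fell from 1226 ± 189 to 704.9 ± 83.3 (SD, n = 3 each) (log2 fold change -0.79, SE 0.17, limma adjusted p = 0.022). It did not pass without normal replicate 1 or 3 or without diabetic replicate 1 or 3 (adjusted p = 0.053, 0.064, 0.073 and 0.059). Polg2, the accessory subunit of the mitochondrial DNA polymerase, rose from 147 ± 48.5 to 305 ± 48.5 (SD, n = 3 each) (log2 fold change 1.09, SE 0.25, limma adjusted p = 0.030). It did not pass with any array left out but normal replicate 1 (adjusted p from 0.066 to 0.10) or with no filter on signal (0.065) or with array weights (0.054). Mterf1 and Supv3l1 had log2 fold changes of 0.54 and -0.33 (adjusted p = 0.17 and 0.23). Tfam, which packages mitochondrial DNA and starts its transcription, differed by 0.33 on the log2 scale (limma adjusted p = 0.28).
Of 4 regulators of mitochondrial biogenesis above the filter, Myc rose from 273 ± 61.2 to 679 ± 212 (SD, n = 3 each) (log2 fold change 1.28, SE 0.26, limma adjusted p = 0.018), and 3 did not pass. These were Ppard (0.54, adjusted p = 0.13), Gabpb1 (0.18, adjusted p = 0.62) and Esrra (-0.26, adjusted p = 0.64). Myc is a transcription factor whose known targets include genes of both kinds of ribosome. Its diabetic signals were 770, 436 and 830, again lowest in diabetic replicate 2, and it did not pass without normal replicate 2 or 3 or without diabetic replicate 1 or 3 (adjusted p = 0.052, 0.050, 0.066 and 0.064). Ppargc1a, Ppara and Yy1 were below the filter and were not tested.

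The families nearest in function gave different values in the same fit. Of 44 cytosolic ribosomal protein genes with a probe set of their own, 42 were above the filter. Of these, 2 were higher (Rpl3 and Rpl12), 0 were lower (0 also at an unadjusted p under 0.05 from limma), and the log2 fold change was below 0 in 3, with a median of 0.30. Of 73 nuclear-encoded subunits of the respiratory chain and ATP synthase, 12 were lower (16.4%), 0 were higher (1 at an unadjusted p under 0.05), and the log2 fold change was below 0 in 72, with a median of -0.40. The members, at a median of -0.15, lay between these families. No test of lists against each other was made, so the families are given side by side only.

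**Figure D5:**
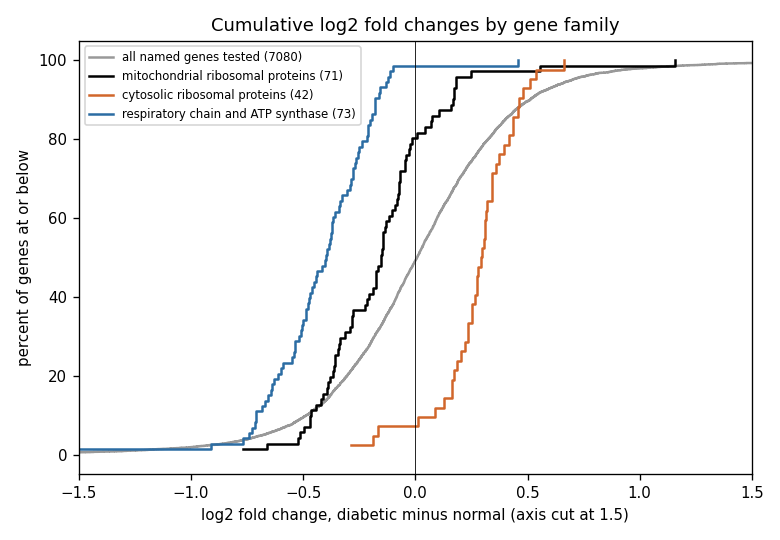
Percent of genes (vertical axis) with a log2 fold change at or below the value on the horizontal axis, for all 7080 named genes tested and 3 families. The curve of the mitochondrial ribosomal protein genes crosses 0 at 80.3%, that of all genes at 49.2%, and at 0 it lies between the respiratory chain curve (98.6%) and the cytosolic ribosomal protein curve (7.14%).

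Markers of the tissue moved in part with the groups. Skeletal muscle markers were bright on all arrays, and 2 of 16 (Myh4 and Mb) were lower in diabetic muscle. Of 8 slow fibre markers none passed (0 also at an unadjusted p under 0.05 from limma), whereas of 10 fast fibre markers 3 were lower (Myh4, Pvalb and Casq1), with a summed signal of 176000 to 200400 in normal and 125700 to 161800 in diabetic muscle. Of 7 fibroblast markers 4 were lower (Col1a1, Col1a2, Col3a1 and Lum), with a summed signal of 43610 to 47980 in normal and 22470 to 23540 in diabetic muscle. Col3a1 alone had a mean of 15980 in normal and 4326 in diabetic muscle. The other fibroblast markers, Dcn, Pdgfra and Postn, did not pass (log2 fold changes of -0.11, -0.34 and 0.0062). Of 4 endothelial markers 1 was higher and 1 lower, of 4 smooth muscle markers 1 was lower, and none of the 2 adipocyte, 5 macrophage and leukocyte, 3 mesothelial or 2 red blood cell markers tested passed (0 also at an unadjusted p under 0.05). All 6 hepatocyte markers were below the filter. The part of fibre type and of fibroblasts in the values of the members was not tested. The ratio of the 3′ to the 5′ β-actin control ran from 1.38 to 2.27 in normal and from 1.17 to 1.71 in diabetic muscle, and that of GAPDH from 1.27 to 4.02 and from 1.49 to 4.0, so the groups overlapped in both. The ranges that the paper reported for both ratios end lower, and the cause of this difference was not tested.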

How the data were processed

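The deposited intensity values, 1 signal per probe set and array on a linear scale, came from MAS 5.0 as run by the authors on 1 array per rat. Any scaling target is not given in the sources used here. Array medians were 167.6 to 180.8. Of 15923 probe sets, 57 controls were left out. Signals under 1 (136 values) were set to 1, log2 was taken with no further normalization, and the dimmer probe sets, up to the 40th percentile of mean signal (105.8), were not tested.

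The 9519 other probe sets went into limma 3.58.1 in R 4.3.3 (lmFit, eBayes with a mean-dependent variance prior, Benjamini-Hochberg adjustment over all of them), with diabetic against normal as the only term. The 6 arrays leave 4 residual degrees of freedom, and their number limits the precision. Present calls and the Bayesian analysis of variance of the study were not repeated. Fold differences are ratios of group means.

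Gene symbols came from the platform's annotation, which gives 12783 probe sets a single gene, 312 more than 1 and 2771 no gene. The brightest probe set stands for a gene. Of 82 member probe sets 80 were tested, and no member probe set was shared with another gene. All 71 members matched RefSeq's GRCr8 gene table and 57 its promoter table, of which the first window listed for a gene was used.

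Members, lists and tests were chosen with earlier results of these data known. Named members passed the test, had groups without overlap, had the 5 highest or 5 lowest log2 fold changes, were among the 3 brightest or had several probe sets. Mrpl46, Mrps18a, Mrps26 and the genes named for their motifs or spread were named after their values were seen. From the other lists of the mitochondrial ribosome, its translation, mitochondrial DNA and biogenesis, genes that passed and up to 3 others with the lowest p were named. Ptcd3 and some genes of the cytosolic ribosomal and tissue marker lists were named outside these rules. They are not among the 57 named genes followed over the settings. The procedure was tested on simulated data.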

Additional observations from a re-analysis of the deposited data

How the results depend on the processing

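The 71 members were refitted under each alternative. The median log2 fold change of all members ranged from -0.168 to -0.143 over quantile normalization, equal array medians, 16 or 64 added to the signals, no filter, a filter at the 60th percentile, array weights, the replicate block, averaging of a gene's probe sets and subunits by structure, and from -0.186 to -0.137 over the 6 fits that leave out 1 array. The large subunit median ranged from -0.194 to -0.153 with an array left out, the small subunit median from -0.219 to -0.033 and their difference from -0.134 to 0.041. With an array left out, 0 to 1 genes were called higher and 0 to 2 lower in all, 0 to 1 higher and 0 to 1 lower in the large subunit, and 0 higher and 0 to 1 lower in the small subunit. Genes called higher went from 1 to 2, with 2 in the large subunit, when the filter was at the 60th percentile, when probe sets were averaged, at an adjusted p under 0.1 and at an unadjusted p under 0.05. Genes called lower went from 2 to 4 (3 in the large subunit) at an adjusted p under 0.1 and to 16 (10 in the large and 6 in the small subunit) at an unadjusted p under 0.05. Over all named genes tested, 496 of 7080 were called in the main fit and 241 to 334 with an array left out. The filter at the 60th percentile gave 465 of 4932, and averaged probe sets gave 473 of 6724. At an unadjusted p under 0.05 from limma, 12.8% of all named genes tested were higher and 11.9% lower. Their share at an adjusted p under 0.1 was not computed. Genes lower with no overlap numbered 21 to 23 and genes higher 3 to 4 under quantile normalization, equal medians and averaged probe sets. No scaling moved the median of all genes by as much as 0.1.

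The labels number the rats 1 to 3 in both groups without saying that a number is shared. For that reason the numbers were not taken as a pairing. Deviations of same-numbered arrays from their group means correlated at 0.098, -0.195 and -0.068. With 3 arrays per group these correlations cannot settle whether the rats were paired. With the replicate block, 1 member was called lower (Mrps16) and none of the large subunit was. Mrpl41, of the large subunit, was still called higher, and Myc also passed (limma adjusted p = 0.0414 and 0.0393). Mrpl42, Gadd45gip1, Slirp and Polg2 did not pass (limma adjusted p = 0.0565, 0.0541, 0.0558 and 0.0718). Over all named genes tested, 259 were called with the block, beside 496 without it. The log2 fold changes that changed sign belonged to genes that did not pass, and did so only when an array was left out, over which they ranged from -0.0707 to 0.0126 (Mrpl15, above 0 without diabetic replicate 2), from -0.330 to 0.033 (Mrpl17, without normal replicate 3 or, at 0.0116, diabetic replicate 3), from -0.327 to 0.067 (Mrpl51, without diabetic replicate 2), from -0.155 to 0.028 (Mrpl52, without diabetic replicate 3), from -0.010 to 0.178 (Mrpl57, below 0 without normal replicate 3 or diabetic replicate 1) and from -0.513 to 0.037 (Esrra, without diabetic replicate 3). The cause was not tested. Over 57 named genes and all settings, 867 of 910 values kept their direction and side of the threshold, 31 no longer passed, 4 newly passed and 8 changed sign. All 31 belonged to Mrpl41, Mrpl42, Mrps16, Gadd45gip1, Slirp, Polg2 and Myc, the only genes among these 57 that had passed. Most of the 57 had not passed to begin with, so the 867 do not measure how stable the calls are.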
